A study of Drosophila melanogaster with 31 samples.

Results

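The 9 pair-rule genes *eve*, *ftz*, *h*, *run*, *odd*, *prd*, *slp1*, *slp2* and *opa* were examined in ATAC-seq peak lists of *Drosophila melanogaster* embryos. Peak summits in a gene body or within 10 kb to either side of it were examined, in the dm6 build. Summits that recurred at the same place were read as 1 accessible element, which gave 114 elements around these genes of 37409 in the genome. Each gene window held between 8 (*slp2*) and 18 (*eve*) elements, and the neighbouring genes *slp1* and *slp2* share part of theirs. The gene bodies are chr2R:9979319-9980795 (*eve*), chr3R:6864324-6866244 (*ftz*), chr3L:8675759-8679253 (*h*), chrX:20690670-20697321 (*run*), chr2L:3604224-3606756 (*odd*), chr2L:12082995-12085827 (*prd*), chr2L:3825675-3827099 (*slp1*), chr2L:3836840-3839185 (*slp2*) and chr3R:4852813-4869979 (*opa*). Of the 114 elements, 20 lay within 500 bp of an annotated start site of a pair-rule gene, 7 near the start site of another protein-coding gene, and 87 were distal.

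ATAC-seq uses a transposase that cuts DNA where it is not covered by nucleosomes, so a peak marks open chromatin. The study addressed whether the transcription factor Grainyhead (Grh) is needed for chromatin accessibility, with 31 samples in 12 conditions. In the maternal and zygotic experiment, grhM-Z- embryos lacked maternal Grh and were homozygous for the null allele grhB37, and their grhM+Z+ siblings had maternal Grh and were grhB37/+, so that these controls also carried the mutant allele. It comprised 3 grhM-Z- and 2 grhM+Z+ embryos at stage 6, and 3 of each at stage 5. In the maternal experiment, grhM- embryos came from germline clones of grhB37 and were set against grhM+ siblings, at stage 5 and stage 6. In the zygotic experiment, grhB37/B37 embryos were set against grhB37/+ siblings, at stage 6 and at 11-12 h after egg laying. Early libraries were single embryos, whereas the libraries at 11-12 h came from several embryos pooled, so that several tissues are mixed in them. Peaks were listed embryo by embryo only in the maternal and zygotic experiment, which has 11 embryos. The other 8 conditions have 1 list each.

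Pair-rule genes are the level of the segmentation hierarchy that turns the broad domains of the gap genes into periodic stripes. All 9 encode transcription factors. *h*, *eve* and *run* receive most of their early stripe input from separate stripe enhancers, *ftz*, *odd*, *prd* and the paralogs *slp1* and *slp2* are also regulated by the other pair-rule genes, and *opa* is expressed in a broad domain and changes the interactions among the others as gastrulation begins. Stage 5 is the cellularizing blastoderm and stage 6 the onset of gastrulation, when stripe patterns are being refined.

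The sequences of 8 elements with a stage difference are shown first, from the reference genome (Release 6 of RefSeq, the same build as dm6), on the + strand. They are a selection that leaves out other elements with a stage difference, so they do not give the share of elements that hold a string. Each is the stretch around the centre of its element. Capitals mark CAGGTAG, the site of Zelda (Zld), which opens chromatin before gastrulation, CGCAGCNNG, a string of the Opa site, and TTTTATG and ACAAAGG, strings of the sites of Caudal (Cad) and Dichaete (D), read on either strand. In the *ftz* promoter the Opa string and the Zld string overlap. The first 5 elements ranked higher in the peak lists at stage 5 and the last 3 at stage 6.
ftz promoter, chr3R:6863968-6864128: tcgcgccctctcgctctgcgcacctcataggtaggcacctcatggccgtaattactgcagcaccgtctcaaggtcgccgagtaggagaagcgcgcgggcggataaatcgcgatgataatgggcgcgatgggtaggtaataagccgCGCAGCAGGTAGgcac
slp1 promoter, chr2L:3825493-3825653: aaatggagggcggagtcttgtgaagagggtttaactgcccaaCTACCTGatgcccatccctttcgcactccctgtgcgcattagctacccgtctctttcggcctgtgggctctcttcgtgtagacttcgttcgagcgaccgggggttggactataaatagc
opa 3.7 kb upstream, chr3R:4849003-4849163: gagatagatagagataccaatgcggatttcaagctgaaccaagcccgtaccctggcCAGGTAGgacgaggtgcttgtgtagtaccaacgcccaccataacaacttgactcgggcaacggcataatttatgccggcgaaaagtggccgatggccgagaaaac
odd 8.6 kb upstream, chr2L:3615260-3615420: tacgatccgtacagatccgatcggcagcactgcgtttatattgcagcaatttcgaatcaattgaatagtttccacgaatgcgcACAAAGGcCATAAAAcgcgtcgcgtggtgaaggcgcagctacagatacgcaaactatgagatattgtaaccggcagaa
prd 4.4 kb downstream, chr2L:12081351-12081511: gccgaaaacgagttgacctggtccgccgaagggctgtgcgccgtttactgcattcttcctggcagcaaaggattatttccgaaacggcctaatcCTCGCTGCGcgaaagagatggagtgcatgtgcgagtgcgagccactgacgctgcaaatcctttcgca
opa intron, 5.4 kb downstream, chr3R:4858099-4858259: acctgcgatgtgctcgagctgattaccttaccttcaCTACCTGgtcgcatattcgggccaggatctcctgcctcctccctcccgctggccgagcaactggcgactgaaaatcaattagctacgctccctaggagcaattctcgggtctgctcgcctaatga
opa 5.2 kb upstream, chr3R:4847509-4847669: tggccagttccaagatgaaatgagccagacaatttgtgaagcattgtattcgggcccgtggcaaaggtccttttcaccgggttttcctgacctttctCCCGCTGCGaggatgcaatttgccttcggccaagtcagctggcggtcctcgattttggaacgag
slp1 7.4 kb upstream, chr2L:3818179-3818339: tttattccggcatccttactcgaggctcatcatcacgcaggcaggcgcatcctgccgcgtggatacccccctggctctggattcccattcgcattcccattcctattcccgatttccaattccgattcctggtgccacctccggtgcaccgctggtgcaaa

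Elements were compared by a rank score. The summits of a list were ranked by −log10 q, and an element's score is the log2 of 15000 (plus 1) over the rank of the strongest summit within 150 bp of its centre, and 0 where no summit there was among the strongest 15000. A difference of 1 on this scale is a change of 2 times in rank. Element names give the distance in kb from the start site along the gene. The number of summits per list ran from 41236 to 46979 in grhM-Z- and from 37996 to 42878 in grhM+Z+ embryos at stage 6, and from 30385 to 40034 in grhM-Z- and from 34904 to 38758 in grhM+Z+ embryos at stage 5. The median summit had 18 to 22 fragments at stage 6 and 16 to 19 at stage 5, so ranks were used in place of heights. The background on the X chromosome was 0.992 to 1.04 times that on the autosomes in 6 of the 11 embryos, and 0.592 to 0.665 times in the other 5. This touches *run*, the only X-linked gene of the 9.

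**Figure D1:**
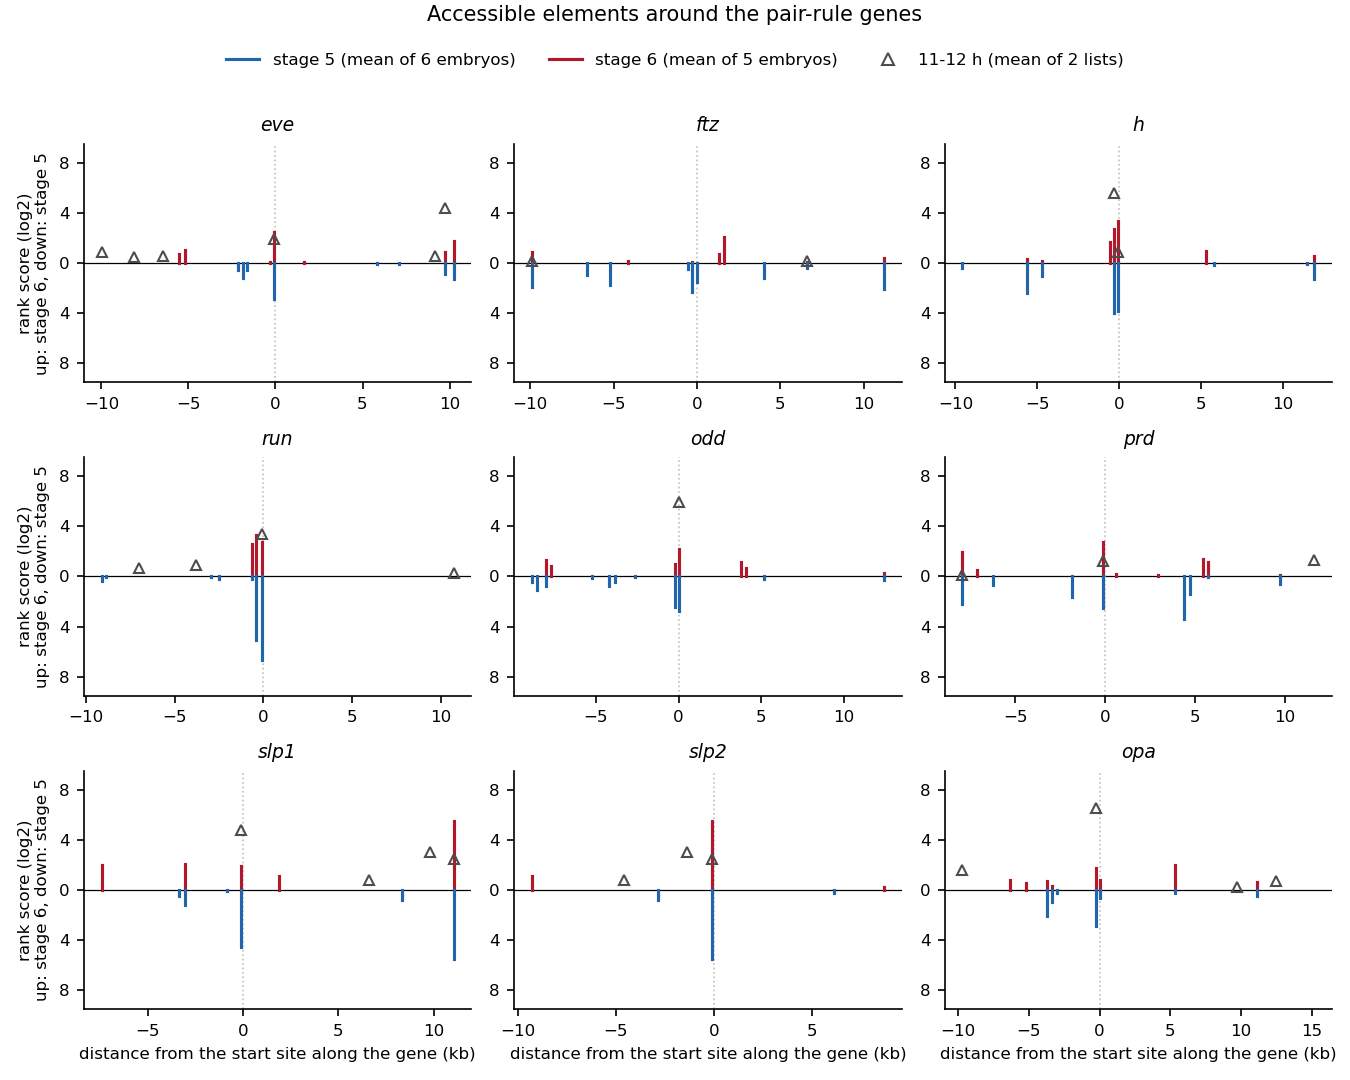
Mean rank score (log2) of each element against its distance from the start site (kb), for the 9 genes. Lines upwards are the mean of 5 stage 6 embryos, lines downwards the mean of 6 stage 5 embryos, and triangles the mean of 2 lists at 11-12 h; distal elements of *ftz*, *prd*, *odd* and *opa* mostly have a line on 1 side only, and *slp2* has 1 tall promoter on both sides.

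The promoters were the strongest pair-rule elements. In single embryos 44 to 54 of the 114 elements had a score above 0, of which 11 to 15 were promoters of these genes and 26 to 35 were distal. Among the listed elements the promoters had a median rank of 2459 to 4158 at stage 6 and 1046 to 2656 at stage 5, and the distal elements of 7526 to 9254 at stage 6 and 7074 to 10097 at stage 5. The promoter of *slp2*, which encodes a forkhead factor, had the best mean score of the 9 at stage 6. Its ranks were 221, 628 and 58 in grhM-Z- and 1361 and 402 in grhM+Z+ embryos at stage 6, against 53, 425 and 1046 in grhM-Z- and 320, 533 and 340 in grhM+Z+ embryos at stage 5. The stages overlapped, and the score did not differ beyond the spread between embryos (stage 6 minus stage 5 of -0.13 ± 0.77, SE; adjusted p = 0.927).

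In the 11 single embryos, peaks around these genes were wider than those elsewhere. The median width of distal elements with a score was 491 to 626 bp in the pair-rule windows and 298 to 404 bp over all distal elements, and the pair-rule value was the higher one in 11 of 11 embryos. For promoters the medians were 596 to 882 bp in the pair-rule windows and 240 to 411 bp over all promoters, again higher in 11 of 11 embryos. Their fold enrichment was lower, with distal medians of 3.66 to 4.75 in the pair-rule windows and 5.25 to 6.52 over all distal elements. The distal medians did not keep this order in every pooled list. The pair-rule width was 508 bp beside 530 bp over all distal elements in grhM- at stage 6 and 530 beside 528 bp in grhM+. At 11-12 h it was 244 beside 329 bp in grhB37/B37 and 390 beside 453 bp in grhB37/+, from 7 and 8 elements, and the promoter fold was higher in the pair-rule windows there, at 2.89 beside 2.41 and 4.31 beside 2.95. These medians are a description, as elements of 1 gene share their window.

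From stage 5 to stage 6, some pair-rule elements fell in rank score and others rose, while most promoters of these genes did not pass the test. Of the 22 pair-rule elements with a mean score of at least 1 over the 11 embryos, 2 were higher and 7 were lower at stage 6 (limma, adjusted p under 0.05). Over the 6531 elements tested in the genome, 11.5% were called higher and 10.4% lower. The median difference of the 22 elements was -1.04, beside -0.06 over all elements tested. The filter drops elements scored at 1 stage only unless they are strong there, and stage 5 gives 6 of the 11 embryos. The *prd* element at 4.4 kb and the *ftz* promoter passed it through their stage 5 scores. So did *h* -5.6 kb, *ftz* +11.2 kb and *opa* -3.7 kb. *run* -0.7 kb and *opa* +5.4 kb passed it through their stage 6 scores. Of the called elements, only the promoters of *slp1* and *run* had a mean score of at least 1 at both stages. The counts and the median of the 22 therefore depend on the filter, and a fit without it was used for the elements below it. In that fit 94 of the 114 elements had a score above 0 in at least 1 embryo, and 15 were called higher and 15 lower at stage 6, beside 6.71% higher and 4.62% lower of 23831 elements. Some of these calls are neighbouring summits of 1 wide peak, as at 5.6 and 5.2 kb upstream of *eve* and 4.7 and 4.4 kb downstream of *prd*. Such calls are not independent of each other. The median difference was then -0.11 over the 94, beside -0.02 over all elements. Where all embryos of 1 stage score 0, that stage adds no spread to the limma estimate. The SE and adjusted p of such an element can then be too small. With 200 arrangements of the stage labels within genotype, the smallest exact two-sided p for a single element is 0.005. Adjusted over all elements, that permutation test called 4 of the 22, and the 5 grhM+Z+ embryos alone called none.

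In the fit without a filter 14 of 71 distal elements were higher and 11 were lower at stage 6, beside 7.22% higher and 5.09% lower of all distal elements. Of the 23 promoter elements, including those of neighbouring genes, 1 was higher and 4 were lower, beside 5.92% and 3.89% of all promoter elements. The higher one was an element 0.56 kb upstream of *h*, which lies near a further start site of the gene. It had ranks of 3585, 3738 and 5553 in grhM-Z- and 6382 and 4823 in grhM+Z+ embryos at stage 6 and a score in none of the 6 stage 5 embryos (1.66 ± 0.14, SE; adjusted p = 0.000185). The exact permutation p was 0.005. Scores above 0 in none of the 5 stage 6 embryos and in all 6 stage 5 embryos were found at 9 of the 87 distal elements, beside 1.35% of all distal elements, and the opposite pattern at 12, beside 1.85%.

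The promoters of *ftz*, *slp1* and *run* had lower rank scores at stage 6. The *ftz* promoter element, 0.28 kb upstream of the start of this homeodomain gene, had ranks of 20218, 12054 and 17374 in grhM-Z- and 14343 and 18534 in grhM+Z+ embryos at stage 6, against 4629, 3992 and 937 in grhM-Z- and 3438, 4223 and 3331 in grhM+Z+ embryos at stage 5. Every stage 6 embryo was behind every stage 5 embryo. The promoter summit held 35 to 65 fragments at stage 6 and 77 to 138 at stage 5. The mean score was 0.08 ± 0.14 at stage 6 (SD, n = 5) and 2.29 ± 0.86 at stage 5 (SD, n = 6), a difference of -2.24 ± 0.43 (SE; adjusted p = 0.00216, exact permutation p = 0.005).

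The *slp1* promoter, on 2L, had ranks of 5433, 3317 and 4539 in grhM-Z- and 2203 and 5510 in grhM+Z+ embryos at stage 6, against 403, 742 and 496 in grhM-Z- and 1520, 417 and 787 in grhM+Z+ embryos at stage 5. The stages did not overlap in rank. Its summit held 66 to 111 fragments at a fold of 4.09 to 5.18 at stage 6. At stage 5 it held 79 to 128 fragments at a fold of 6.22 to 8.28, so the fold fell while the fragments overlapped. The mean score was 1.92 ± 0.56 at stage 6 and 4.53 ± 0.73 at stage 5 (SD, n = 5 and 6), a difference of -2.64 ± 0.44 (SE; adjusted p = 0.00084). The start site of its paralog *slp2* is 11.2 kb downstream. Averaged with equal weight for both genotypes, the stage difference of the *slp1* promoter minus that of the *slp2* promoter was -2.38, which did not pass an exact two-sided permutation test of that difference (p = 0.07). Without the single grhM+Z+ embryo with *slp2* at rank 1361 the *slp2* difference was 0.33, and its sign also turned without either of 2 other embryos.

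*run*, on X, encodes a Runt-domain factor, and its promoter had the best mean score of the 9 at stage 5. Its ranks were 645, 3971 and 2320 in grhM-Z- and 5350 and 1569 in grhM+Z+ embryos at stage 6, against 37, 332 and 1242 in grhM-Z- and 19, 31 and 1281 in grhM+Z+ embryos at stage 5. The difference was -3.81 ± 1.12 (SE; adjusted p = 0.0252, exact permutation p = 0.045), and the adjusted p was 0.112 in the fit without a filter. Leaving out any of 4 single embryos also ended the call, with an adjusted p of up to 0.165 over all the alternatives. Its summit held 61 to 142 fragments at a fold of 4.74 to 6.26 at stage 6. At stage 5 it held 65 to 146 fragments at a fold of 7.57 to 9.91, so here too the fragments overlapped. The wide spread of the scores follows the X background. In the 6 embryos with a ratio near 1 the mean score was 3.50 ± 0.95 at stage 6 and 9.07 ± 0.50 at stage 5 (SD, n = 3 each). In the other 5 it was 1.70 ± 0.30 at stage 6 (n = 2) and 4.21 ± 1.11 at stage 5 (SD, n = 3), so the score was lower at stage 6 in both sets. With the ratio as a further term, added after the data were examined, the difference was -4.34 ± 0.66 (SE; adjusted p = 0.000533).

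The own promoter elements of *eve*, *h*, *odd*, *prd* and *opa*, those with the highest mean score near a start, did not pass the threshold. *eve*, a homeodomain repressor, had promoter ranks of 2739, 2273 and 2459 in grhM-Z- and 4225 and 2468 in grhM+Z+ embryos at stage 6, against 2134, 1515 and 1511 in grhM-Z- and 4777, 1613 and 2201 in grhM+Z+ embryos at stage 5. The difference was -0.45 ± 0.37 (SE; adjusted p = 0.413) and the stages overlapped. The promoter of *prd*, a paired-domain factor, was at -0.1 kb with a difference of 0.22 ± 0.38 (SE; adjusted p = 0.715). *h*, which encodes a bHLH repressor and has twin summits at its start, had -0.50 ± 0.36 at the stronger of them, *odd*, a zinc-finger gene, -0.67 ± 0.45, and *opa*, also a zinc-finger gene, -1.11 ± 0.46 (SE; adjusted p = 0.348, 0.309 and 0.102). A p above the threshold does not show that these promoters stayed the same.

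**Figure D2:**
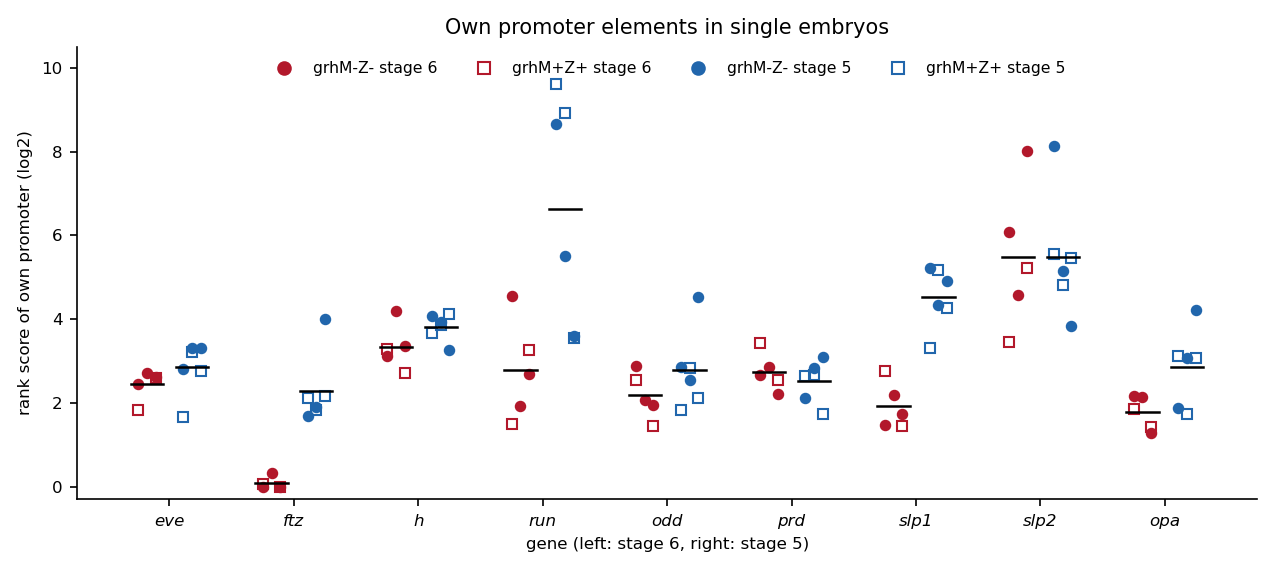
Rank score (log2) of the own promoter of each gene in 11 single embryos, stage 6 to the left and stage 5 to the right, with filled circles for grhM-Z-, open squares for grhM+Z+ and a line at the mean. The stages separate at *ftz* (0.08 against 2.29 on average) and *slp1* (1.92 against 4.53), and *run* is spread over the widest range.

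Distal elements that fell in rank score by stage 6 lay at *prd*, *h*, *ftz*, *opa*, *odd*, *eve* and *slp2*. The element 4.4 kb downstream of the *prd* start, beyond the 3′ end of the gene, had ranks of 20863, 19513 and 22505 in grhM-Z- and 28451 and 24619 in grhM+Z+ embryos at stage 6. At stage 5 its ranks were 1042, 787 and 391 in grhM-Z- and 2033, 3745 and 3826 in grhM+Z+ embryos. The difference of -3.49 ± 0.46 (SE; adjusted p = 0.000204) was the largest of the distal pair-rule elements. At stage 6 its summit held 30 to 52 fragments at a fold of 2.21 to 2.49, against 62 to 125 fragments at a fold of 4.99 to 9.17 at stage 5, so the peak had become lower and had not gone from the lists. The element next to it, at 4.7 kb, fell by 1.48 ± 0.26 (SE; adjusted p = 0.00741, without a filter), and one 1.8 kb upstream of *prd* by 1.60 ± 0.41 (adjusted p = 0.0367), a call that was lost in 9 of the 11 fits that left out 1 embryo.

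Further elements lower at stage 6 were spread over the genes. At *h*, an intergenic element 5.6 kb upstream, in the region of its stripe enhancers, fell by 2.11 ± 0.58 (SE; adjusted p = 0.0186), but was not called without the filter (adjusted p = 0.0647). At *ftz*, the fall was 1.67 ± 0.46 at 11.2 kb downstream (adjusted p = 0.0171), and without a filter 1.74 ± 0.23 at 5.2 kb upstream, in its upstream element, and 1.17 ± 0.15 at 4.0 kb downstream (adjusted p = 0.00199 and 0.00167). A second summit in the upstream element, 4.1 kb upstream, had a score in 3 of 5 stage 6 and 0 of 6 stage 5 embryos. It was not called (0.19 ± 0.08, SE; adjusted p = 0.158, without a filter). The element 3.7 kb upstream of *opa* had ranks of 8179, 9129 and 7929 in grhM-Z- and 12453 and 8572 in grhM+Z+ embryos at stage 6, against 2713, 3106 and 2852 in grhM-Z- and 4632, 3070 and 5323 in grhM+Z+ embryos at stage 5, with a difference of -1.43 ± 0.32 (SE; adjusted p = 0.0059). Its stages did not overlap in rank, while its fragments did, with 66 to 109 at stage 6 and 77 to 107 at stage 5. The fold was 2.84 to 3.63 at stage 6 and 3.55 to 5.26 at stage 5. At *odd*, the element 8.6 kb upstream was not listed in any of the 5 stage 6 embryos and ranked 4646 to 9997 in the 6 stage 5 embryos. At stage 5 it was a summit of 1 wide peak with the element 8.1 kb upstream, the strongest distal one of *odd*. That element ranked 4903 to 9681 at stage 6 and was not called (0.50 ± 0.31, SE; adjusted p = 0.366, without a filter). One 7.8 kb upstream rose by 0.83 ± 0.14 (SE; adjusted p = 0.00539, without a filter). The call at 8.6 kb was lost with joined peaks.

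The elements that rose in rank score were mostly unscored at stage 5. In the *opa* intron, 5.4 kb from the start, the ranks were 3457, 3225 and 2867 in grhM-Z- and 4402 and 5480 in grhM+Z+ embryos at stage 6. At stage 5 they were 12526 and 10811, with 1 embryo not listed, in grhM-Z- and 11507, 12939 and 14640 in grhM+Z+ embryos. The difference was 1.73 ± 0.32 (SE; adjusted p = 0.00169). At *run*, an intronic element 0.66 kb upstream of the start site used had ranks of 833 to 7583 in the 5 stage 6 embryos and was listed in 2 of 6 stage 5 embryos, a difference of 2.43 ± 0.56 (adjusted p = 0.00652). It was 3.13 in the embryos with an X ratio near 1 and 1.24 in the others.

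In the fit without a filter, an element in the 3′ UTR of *ftz*, 1.6 kb from the start, rose by 2.08 ± 0.11 (SE; adjusted p = 2.84e-05, exact permutation p = 0.005). Its ranks were 2804 to 4400 in the 5 stage 6 embryos, while 4 of 6 stage 5 embryos had a rank of 24030 to 31385 and the others none. The *ftz* locus thus fell in rank score at its promoter, which stayed listed, and rose at its 3′ end. An element 3.8 kb downstream of the *odd* start rose by 1.11 ± 0.15 (SE). Those 5.5 and 5.7 kb downstream of the *prd* start rose by 1.34 ± 0.16 and 1.08 ± 0.18 (SE), farther out than the pair that fell. Elements 6.3 and 5.2 kb upstream of *opa* rose by 0.74 ± 0.09 and 0.56 ± 0.08 (SE).

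**Figure D3:**
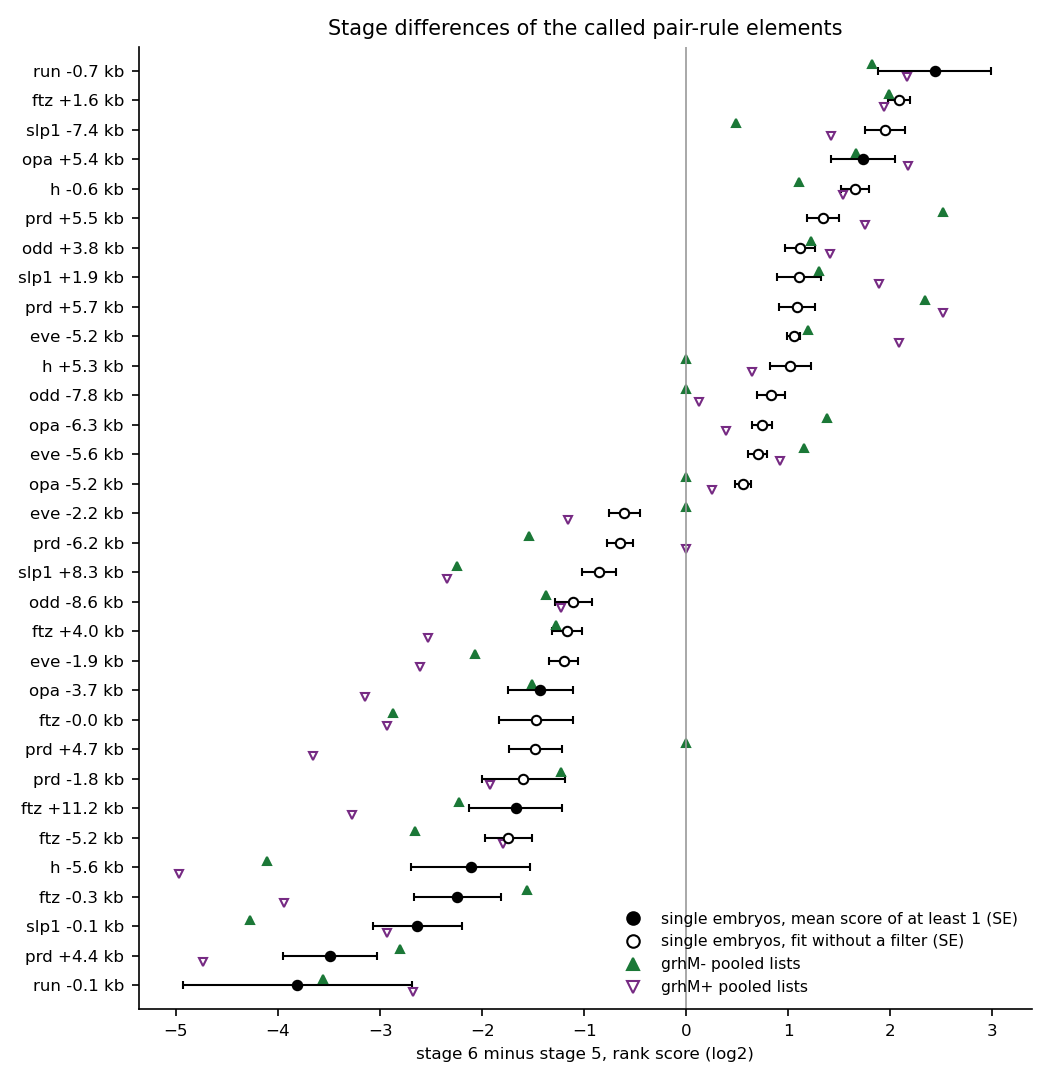
Stage 6 minus stage 5 in rank score (log2) for the called pair-rule elements, ordered by size. Circles with SE are the single embryos, filled where the mean score was at least 1 and open in the fit without a filter, and triangles are the pooled lists of grhM- (up) and grhM+ (down); the *run* promoter (-3.81) and *prd* +4.4 kb (-3.49) are at the low end and *run* -0.7 kb (2.43) at the high end.

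Classical stripe elements of *eve*, *ftz* and *slp1* were looked up in approximate windows. The late element of *eve*, which takes over the pattern after the stripe enhancers, held 2 elements, 5.2 and 5.6 kb upstream. At 5.2 kb the ranks were 7635, 6250 and 7391 in grhM-Z- and 6782 and 8202 in grhM+Z+ embryos at stage 6, and none of the 6 stage 5 embryos had a summit there. The differences were 1.05 ± 0.07 and 0.70 ± 0.10 (SE; adjusted p = 5.16e-05 and 0.00227, without a filter). All stage 5 scores were 0 at both, so these SE are narrow, and the exact permutation p was 0.005 at each. Both are summits of 1 wide peak. Just upstream of the stripe 2 window, an element 1.9 kb upstream went the other way, with ranks of 15089 to 30381 at stage 6 and 4475 to 7734 at stage 5 and a difference of -1.20 ± 0.14 (adjusted p = 0.00106). In the stripe 2 window itself the element at 1.6 kb had -0.61 ± 0.17 (adjusted p = 0.0525). One at 1.1 kb had a score in none of the 11 single embryos. The windows for stripe 3+7, stripe 4+6 and stripe 5 held no element, which does not exclude weaker summits there, and that for stripe 1 held a weak one.

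At *slp1*, the distal early stripe element (DESE), 7.4 kb upstream, had ranks of 4495, 3150 and 2722 in grhM-Z- and 3306 and 6496 in grhM+Z+ embryos at stage 6, and no summit in the 6 stage 5 embryos. It rose by 1.95 ± 0.19 (SE; adjusted p = 0.000444, without a filter, exact permutation p = 0.005). In the proximal early stripe element (PESE), the summit 3.1 kb upstream had 0.89 ± 0.43 (adjusted p = 0.159), and that at 3.4 kb was unscored in all stage 6 embryos, with -0.50 ± 0.23 (adjusted p = 0.227). Downstream of *slp1*, an element at 1.9 kb rose by 1.10 ± 0.22 and one at 8.3 kb, which is 2.8 kb upstream of *slp2*, fell by 0.86 ± 0.17 (SE; adjusted p = 0.0129 and 0.0116).

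The embryos of the maternal experiment, which had no part in these fits, gave mostly the same signs. All 9 called elements moved the same way in grhM- and in grhM+, beside 86.3% of the 1427 elements called in the genome. For the elements of the fit without a filter the count was 24 of 30, beside 83.5% of 2699. The ranks of *prd* +4.4 kb were 46759 at stage 6 and 2149 at stage 5 in grhM-, and 33329 and 562 in grhM+. Those of the *slp1* promoter were 4842 at stage 6 and 250 at stage 5 in grhM-, and 3972 and 519 in grhM+. Each condition is 1 list here, so these values carry no test.

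No pair-rule element was called different in embryos without Grh. Between grhM-Z- and grhM+Z+ embryos 0 of the 22 elements passed an adjusted p of 0.05 in limma, as did 0% of the 6531 tested. Exact permutation called none either, but it could not have called any. Its p cannot go below 0.005, and with 417 of the 6531 elements under an unadjusted 0.05 that is too large to pass the adjustment. At an unadjusted p of 0.05 it was 1 of 22, beside 7.04% of all elements. The exception was *prd* +4.4 kb, with 1.21 ± 0.46 (SE; adjusted p = 0.629, exact permutation p = 0.10). It was higher in grhM-Z- at stage 5, with a mean score of 4.45 ± 0.73 in grhM-Z- and 2.29 ± 0.52 in grhM+Z+ embryos (SD, n = 3 each), and at 0 in all stage 6 embryos of both genotypes. In the maternal lists the order was the other way, with rank 2149 in grhM- and 562 in grhM+ at stage 5. No difference between the genotypes in their stage difference passed the threshold at a pair-rule element (interaction adjusted p of at least 0.952 for the 22 elements, and of at least 0.439 for the 94 without a filter). With 281 elements at an unadjusted p under 0.05, none of the 6531 interactions passed the adjusted threshold either.

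The intervals around these differences were wide. For the 9 promoters the grhM-Z- minus grhM+Z+ difference ran from -0.50 ± 1.12 at *run* to 1.08 ± 0.77 at *slp2* (SE). In the zygotic experiment at stage 6, which has 1 list per genotype, the grhB37/B37 minus grhB37/+ difference of the 9 promoters lay between -0.91 (*opa*) and 0.90 (*run*). In the maternal experiment the grhM- minus grhM+ difference lay between -0.88 (*prd*) and 2.15 (*odd*) at stage 6 and between -2.38 (*ftz*) and 2.43 (*h*) at stage 5. The promoters of *h*, *ftz* and *odd* have twin summits, and these largest gaps were not seen at the second summit. It ranked 955 in grhM- and 904 in grhM+ at *h* and 2048 and 1971 at *ftz* at stage 5, and 1793 and 1572 at *odd* at stage 6. *grh* is on chromosome 2, as are *eve*, *odd*, *prd*, *slp1* and *slp2*, and grhB37 was kept over a balancer of that chromosome. The unadjusted share was 9.73% of the elements tested on chromosome 2 and 5.39% on the other chromosomes, with 1 of 10 and 0 of 12 pair-rule elements.

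At 11-12 h the own promoter element of most pair-rule genes was listed, and almost none of the early distal elements were. Promoters of 7 of the 9 genes were among the strongest 15000 in both late lists, in grhB37/B37 and in grhB37/+, by their own promoter element. Of all 20 promoter elements of these genes, 10 had a score in a late list and 9 in both. With promoters of neighbouring genes, 12 of 27 had one in each late list. Over the genome, 3541 of 11733 promoter elements had a score in grhB37/B37 and 6582 in grhB37/+. The share of 12 of 27 was thus above that of the genome in grhB37/B37 and below it in grhB37/+. The count of 7 of 9 rests on elements chosen for their high score in the early embryos. No genome share was counted in that way, so whether 7 of 9 is more than usual was not tested. The *opa* promoter ranked 374 in grhB37/B37 and 73 in grhB37/+ at 11-12 h, against 7221 and 3847 at stage 6, and that of *odd* 680 and 90, against 3369 and 3631. For *slp1* the ranks were 749 in grhB37/B37 and 408 in grhB37/+, for *run* 1462 and 1428, for *eve* 5039 and 3154, and for *slp2* 5082 and 1442. *prd* was later in the lists, at 3894 in grhB37/B37 and 10772 in grhB37/+. The *h* promoter element was listed in grhB37/B37 alone, at rank 4320, while the summit 0.30 kb upstream ranked 199 in grhB37/B37 and 470 in grhB37/+. The *ftz* promoter had no peak in either late list.

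**Figure D4:**
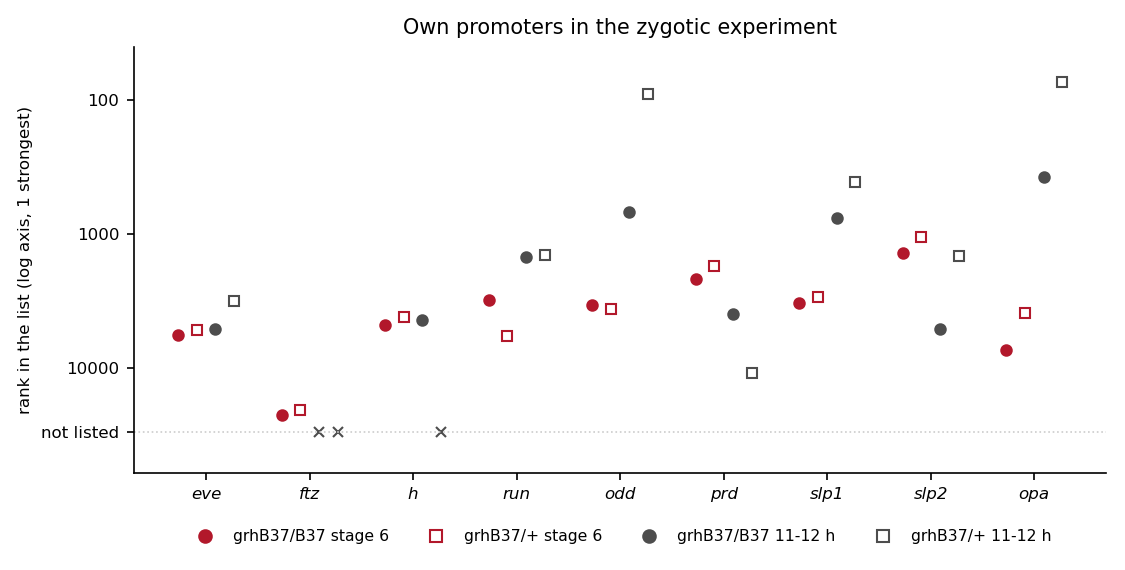
Rank (log axis, strongest at the top) of the own promoter of each gene in the 4 lists of the zygotic experiment, grhB37/B37 left of grhB37/+ at stage 6 and then at 11-12 h, with crosses where no summit was listed. *odd* (680 and 90) and *opa* (374 and 73) stand highest at 11-12 h and *ftz* is not listed there; *h* is drawn by the stronger of its twin early summits.

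Of the 87 distal elements, 12 had a score in a late list, beside 45.2% of all distal elements. Of these 12, 10 had none in any of the 11 early embryos, beside 78.4% of all distal elements with a late score. Of the 71 distal elements with a score in an early embryo, 2 had one at 11-12 h, beside 17.3% of all such elements. The 9 distal elements scored in no stage 6 and all stage 5 embryos and the 12 with the opposite pattern were all without a score at 11-12 h, while 3.17% and 15.6% of all distal elements with these patterns had one. An element between *slp1* and *slp2*, 1.4 kb upstream of the *slp2* start, ranked 3280 in grhB37/B37 and 1084 in grhB37/+, and one 9.7 kb upstream of *opa* 5438 and 4635. An element 11.7 kb downstream of the *prd* start was listed in grhB37/+ alone, at rank 2513, and one at 9.2 kb downstream of *eve* in grhB37/B37 alone, at rank 6999. The late lists hold 12001 summits in grhB37/B37 and 24857 in grhB37/+, so an element missing from one may lie below its end. Size selection, read type, pooling and the number of embryos also changed with age, and cannot be told apart from it, and fewer cells with an open element cannot be told apart from weaker opening in each cell.

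Among other developmental genes, 4 of 13 gap gene elements (*hb*, *Kr*, *gt*, *kni*, *tll*, *hkb*) were called higher and 4 lower at stage 6, and 1 and 8 of 28 segment polarity elements (*en*, *inv*, *wg*, *hh*, *ptc*, *ci*, *gsb*, *nkd*). The pair-rule windows had 2 and 7 of 22. Without a filter the counts were 15 and 15 of 94 for pair-rule, 7 and 7 of 58 for gap and 13 and 15 of 93 for segment polarity elements. The differences between these groups were not tested.

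Sequence strings within 150 bp of the centre were counted for the 94 elements of the fit without a filter. The Zld string was in 20.2% of them and in 5.87% of all 23831 elements, and by stage in 7 of 15 lower and 2 of 15 higher pair-rule elements, beside 21.9% of all lower and 4.44% of all higher elements. The Opa string was in 11.7%, beside 4.55% of all elements, and in 2 of 15 of either kind. The Cad string was in 5 of 15 lower and 0 of 15 higher elements, beside 14.4% of all lower and 7.45% of all higher elements, and the D string in 3 of 15 and 0 of 15, beside 5.63% and 7.32%. AACNGGTT, the Grh string, was in 2 of the 94 (2.13%), beside 3.94% of all elements, and in none of the 30 called. GAGAGAG, bound by the GAGA factor, was in 5.32%, beside 12.4% of all elements. A string is a description and not a bound site, and windows of close elements overlap.

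Other promoters with a similar profile were sought by the correlation of their scores with the mean of the 9 pair-rule promoters over the 19 lists. Of 4609 genes the closest were *SppL* (r = 0.866), *apt* (0.853), *CG17672* (0.837), *CG11151* (0.836) and *Hsp110* (0.833). The lists share embryos' genotype, stage and experiment, so r is a description. The 9 pair-rule promoters averaged 2.45 over the stage 6 lists and 3.65 over the stage 5 lists. *CG11151* was near this level, with 2.51 and 4.06, and *apt*, a transcription factor gene, was above it, with 5.58 and 8.78.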

How the data were processed

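Chromatin accessibility was measured by ATAC-seq. The authors trimmed reads with Trimmomatic 0.36, aligned them to dm6 with Bowtie 2 and ran MACS2 with a q-value limit of 0.05, allowing more than 1 summit in a peak. Early libraries were paired-end and limited to short fragments. Late libraries were single-end without size selection. The deposited lists give a score (10 times −log10 q as a whole number), the fold enrichment as a ratio, and −log10 p and −log10 q per summit. Fragments and background per summit were solved from the deposited fold and −log10 p. Solved values lay within 0.05 of a whole number for at least 99.97% of summits in each list.

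Summits of all 19 lists (11 embryos, 8 pooled) were gathered into elements with centres at least 250 bp apart. Adjacent elements can read the same summit. Scores were tested with limma 3.58.1 in R 4.3.3 over the 11 embryos, with stage and genotype as terms and Benjamini-Hochberg adjustment over all elements tested. Embryos of a group were separate samples. On simulated scores with 200 of 6531 elements changed by 2, the fit called 113 of them and 2 others. Genes and start sites are from the Ensembl annotation, where *h* is named *hry*. No sequence on 2R is printed. Read counts and the study's DESeq2 and ChIP-seq results were not used here.

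The genes, gene lists, stripe windows and tests were chosen with earlier results of these data known. Named are the own promoter of each gene (highest mean score within 500 bp of a start site), its strongest distal element, all elements in the stripe windows, and up to 10 called elements with the largest difference. Elements called only without a filter, or seen at 11-12 h, were named after their values were seen. Alternatives were other score floors, ranking by fold, wider read-out, joined peaks, other filters, single genotypes or stages, exact permutation, and each embryo left out.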

Additional observations from a re-analysis of the deposited data

Results flagged for a closer look

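In 4 named elements the pooled lists of the maternal experiment moved in opposite directions in grhM- and grhM+ between stage 5 and stage 6. At the *h* promoter the difference was -0.96 in grhM- and 1.61 in grhM+, while its twin summit 0.30 kb upstream moved the same way in both, with -0.23 in grhM- and -0.44 in grhM+. At the *slp2* promoter it was -0.13 in grhM- and 2.25 in grhM+. At the *slp1* element 3.1 kb upstream it was -0.32 in grhM- and 0.17 in grhM+, and at the *ftz* element 9.9 kb upstream 0.001 in grhM- and -0.54 in grhM+. There is 1 list per condition, and these differences between the genotypes were not tested.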

How the results depend on the processing

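No paired analysis was possible because the embryos in the peak lists carry names that do not give the replicate numbers of the labels. The 9 pair-rule elements called by stage kept their direction in all 165 values under the alternatives, and 145 of these stayed past the threshold. The number called was 4 with the strongest 10000 summits (907 over all elements), 15 with the strongest 20000 (1979), 4 of only 8 tested when ranked by fold enrichment (1981), 30 without a filter (2699), 2 with a mean score of at least 2 (567), 0 in grhM+Z+ embryos only (117), and 4 by exact permutation (852). In grhM-Z- embryos only it was 692 over all elements. Fewer elements were tested under the lower floor, the fold ranking and the stricter filter, and fewer embryos in the single genotypes. The *run* element 0.66 kb upstream lost its call with summits read within 250 bp, and that 3.7 kb upstream of *opa* with joined peaks. For the 23 elements called only without a filter, 338 of 423 values stayed past the threshold and 84 did not, mostly for fewer embryos, the lower floor or the fold ranking. The *ftz* summit at its start turned to 0.011 with joined peaks. Among promoters that were not called, *h* turned to 0.087 with joined peaks. With grhM-Z- embryos only, *prd* turned to -0.111 and *slp2* to 0.516. Leaving out each embryo gave -0.008 to 0.367 for *prd* and -0.676 to 0.4 for *slp2*. Genotype calls over all elements were 0 to 2 when embryos were left out. The interaction gave 1 over all elements with joined peaks and 31 without a filter, and in neither any at a pair-rule gene. The median size of the pooled mutant difference over promoters was 0.344, and 0.067 when ranked by fold. The causes of these shifts beyond fewer elements or embryos were not tested.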

Other observations

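The *run* locus changed in both directions within 1 kb by rank score. Its promoter was lower at stage 6 and the intronic element 0.66 kb upstream was higher, in embryos with either X background. The call of the intronic element was lost with summits read within 250 bp. At stage 6 both elements were summits of 1 wide peak, so their differences are not independent of each other. The element between them, 0.4 kb upstream, had a mean score of 4.65 at stage 6 and 7.45 at stage 5 in the embryos with an X ratio near 1, and of 1.20 and 2.64 in the others. It was not called (-1.74 ± 1.30, SE; adjusted p = 0.367 in limma) and passed only with the X ratio as a further term, which was added after the data were examined (-2.39 ± 0.69, SE; adjusted p = 0.0222). At *prd*, 4 adjacent elements downstream of the gene changed side by side, with the 2 nearer the gene lower and the 2 farther ones higher at stage 6. The elements of each pair are summits of 1 wide peak.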
